A study of Mus musculus with 8 samples.

Results

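Sertoli identity genes are the transcription factors, hormone, receptor and secreted proteins by which the somatic supporting cell of the seminiferous tubule is recognised. The set named here holds 10 genes: Sox9, Sox8, Gata4, Gata1, Wt1, Nr5a1, Amh, Fshr, Rhox5 and Clu. They were found by gene symbol in a table of 22744 genes. A row was found for 9 of the 10, and all 9 were expressed highly enough to enter the test among 16634 genes. Rhox5 had no row under that symbol and its expression was not analysed here.

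The expression samples were whole testes of postnatal day 8 (P8) mice on a C57BL/6 background, as 3 wild-type and 3 Dmrt6 null RNA libraries. Dmrt6 is listed as Dmrtb1 and encodes a DMRT family DNA-binding protein made by germ cells of the testis. The labels do not say how the null allele was made or whether a library is 1 animal or a pool. The p-values therefore measure the spread between these libraries. Binding was measured in adult wild-type testis labelled C57BL/6, Mixed, as 1 library of chromatin immunoprecipitated with an antibody to DMRT6 (ChIP) and 1 of input, which gave 14862 peaks. The expression values are log2 CPM (read counts scaled to a common library total, on a log2 scale), from 23768316 to 29046494 reads per library. Dmrtb1 stood (replicates 1, 2 and 3, here and below) at 3.03, 4.12 and 3.21 for wild type and at -0.88, -0.13 and 0.03 for null, so each null library lay below every wild-type library. The difference of -3.78 (SE 0.36) had an adjusted p of 0.0516 in limma. Dmrtb1 itself thus did not pass the threshold of 0.05 used below.

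Sertoli cells form the tubule wall, nurse the germ cells and make the hormones that shape the male tract. In the fetal gonad SRY turns on Sox9, and SOX9, together with SOX8, WT1, GATA4 and the orphan nuclear receptor NR5A1 (SF-1), drives anti-Müllerian hormone (Amh) and keeps the cell male. In the young postnatal testis Sertoli cells still divide under follicle-stimulating hormone, Amh is still made, and it is shut off as the cells mature and androgen action begins. DMRT6 is thus made in one cell type of the tubule and the genes described here mostly in another. In whole testis, fewer cells of a type and less RNA per cell cannot be told apart.

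None of the 9 genes passed the test of genotype. In limma, with Benjamini-Hochberg adjustment over all 16634 genes and a threshold of 0.05, 0 of 9 passed in either direction, where 1 of all tested genes (0.00601%) did so, with a higher level in null. At an unadjusted p under 0.05 there was 1 gene of the 9, Gata1, and 3.47% of all tested genes. limma's voom on recovered reads likewise called 0 of the 9. Complete separation of the 3 null from the 3 wild-type libraries was found for 0 of the 9, against 11.1% of tested genes (5.06% with null higher and 6.02% with null lower). The median difference, null minus wild type, was 0.17 over the 9 genes and 0.01 over all tested genes. A difference above 0 was found for 7 of the 9 and for 51.7% of tested genes.

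Among the 6 libraries, null replicate 3 held the highest value for 7 of the 9 genes: Sox9, Sox8, Gata4, Gata1, Wt1, Nr5a1 and Amh. The same library was the highest for 34.5% of all tested genes, and the lowest for 34.0%. Null replicate 2 held the lowest value for 5 of the 9, namely Sox9, Gata4, Nr5a1, Amh and Clu, against 13.4% of tested genes. Among the null libraries alone, replicate 3 was the highest and replicate 2 the lowest for 7 of the 9 and for 26.2% of tested genes. The null libraries spanned more than 1 log2 unit for 5 of the 9 and for 12.5% of tested genes. These counts were chosen after the values were seen. The SD over the 3 null libraries exceeded that over the wild-type libraries for 7 of the 9 and for 72.2% of tested genes, with a median of 0.59 in null and 0.21 in wild type for the 9, and of 0.22 and 0.13 over all tested genes. Differences of the 7 genes highest in null replicate 3 are therefore given with all libraries, without null replicate 2 and without null replicate 3. Other results are given without null replicate 3 where it changes them.

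**Figure D1:**
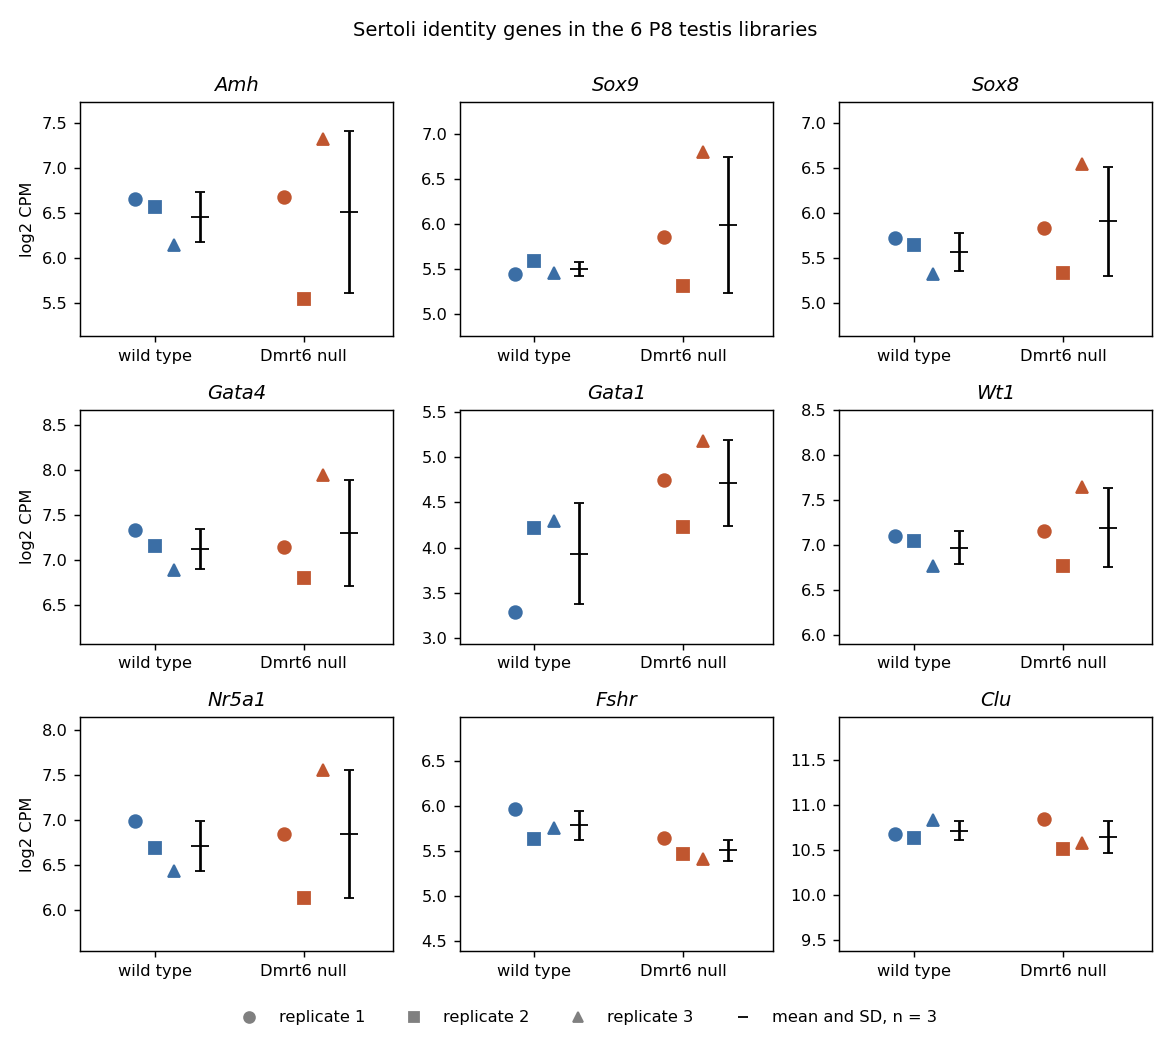
Log2 CPM of the 9 measured Sertoli identity genes in each P8 library (points, shaped by replicate number), with the mean and SD of the 3 libraries of each genotype (black bars). Every panel spans the same log2 range. In 7 panels the triangle of null replicate 3 is the highest point, whereas Fshr and Clu stay within a narrow band.

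Sox9 (ENSMUSG00000000567, chromosome 11, 112643538 to 112649074, plus strand, mm9) encodes the SOX factor that commits and maintains the Sertoli cell. The log2 CPM of Sox9 was 5.45, 5.60 and 5.46 in the wild-type libraries and 5.86, 5.32 and 6.81 in the null libraries. The wild-type libraries lay within 0.14 of each other, and the null libraries spread over 1.49, with 1 below and 2 above the wild-type range. The mean was 5.50 ± 0.08 over the wild-type libraries and 5.99 ± 0.75 over the null libraries (SD, n = 3), a difference of 0.49 (standard error, SE, 0.32, adjusted p = 0.755 in limma). Without null replicate 3 the difference was 0.08, and without null replicate 2 it was 0.83.

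Sox8 (ENSMUSG00000024176, chromosome 17, 25702837 to 25707631, minus strand, mm9) encodes a close relative of SOX9 that backs it up in the postnatal tubule. Its values were 5.72, 5.64 and 5.32 in wild type and 5.84, 5.33 and 6.54 in null. Null replicate 2 lay inside the wild-type range, and null replicates 1 and 3 above it. The difference was 0.34 (95% interval -0.30 to 0.98). It was 0.02 without null replicate 3 and 0.63 without null replicate 2. The pair was also set side by side within each library, where a shared scaling of the library cancels. Sox8 minus Sox9 averaged 0.06 ± 0.21 for wild type and -0.09 ± 0.15 for null (SD, n = 3, exact two-sided permutation p = 0.4, where 0.1 is the smallest p that 3 against 3 libraries allow). The difference of -0.15 between genotypes was -0.06 without null replicate 3 and -0.04 without wild-type replicate 1.

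Gata4 (ENSMUSG00000021944, chromosome 14, 63817759 to 63890529, minus strand, mm9) encodes a GATA zinc finger factor of Sertoli and other gonadal somatic cells. It stood at 7.33, 7.15 and 6.89 in wild type and at 7.15, 6.80 and 7.95 in null. Null replicate 3 was the highest and null replicate 2 the lowest of the 6. The difference was 0.17 (95% interval -0.45 to 0.79). It was -0.15 without null replicate 3 and 0.42 without null replicate 2.

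Gata1 (ENSMUSG00000031162, chromosome X, 7536386 to 7555197, minus strand, mm9) encodes the GATA factor best known from red cell and megakaryocyte precursors, and it is switched on in Sertoli cells after birth. The 3 wild-type libraries had 3.28, 4.21 and 4.30 log2 CPM (232, 542 and 540 reads), and the 3 null libraries 4.75, 4.23 and 5.18 (709, 516 and 934 reads). Wild-type replicate 1 was the lowest by far, and null replicate 2 lay between wild-type replicates 2 and 3, so the groups overlapped. The mean was 3.93 ± 0.56 for wild type and 4.72 ± 0.48 for null (SD, n = 3), a difference of 0.79 (SE 0.32), or 1.73 times the wild-type level. It had the smallest p of the 9 genes (unadjusted 0.040, adjusted p = 0.755 in limma). Without wild-type replicate 1 the difference was 0.46. It was 0.56 without null replicate 3 and 1.04 without null replicate 2.

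Because Gata1 is also made in blood lineages, their markers were read beside it. Of 5 tested red blood cell genes, 5 had a difference below 0, with a median of -0.66. The summed level of the 9 listed red blood cell genes with a row was 1479 to 1778 CPM in wild type and 719 to 1256 CPM in null. Of 6 tested mast cell, eosinophil and megakaryocyte genes, 6 had a difference below 0, with a median of -0.60. The summed level of the 8 listed genes with a row was 23.6 to 33.1 CPM in wild type and 15.9 to 21.5 CPM in null. Both lists were thus lower in null where Gata1 was higher, and 0 of their genes passed the test of genotype. At an unadjusted p under 0.05 in limma there were 4 of 5 and 2 of 6, against 3.47% of all tested genes. The part of these cells in the level of Gata1 was not tested. No listed marker with a row was at 0 in every library. Gata1 minus Gata4 within a library averaged -3.19 ± 0.76 for wild type and -2.58 ± 0.18 for null (SD, n = 3, exact permutation p = 0.2). Without wild-type replicate 1 the difference between genotypes in that value was 0.19 in place of 0.62.

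Wt1 (ENSMUSG00000016458, chromosome 2, 104966686 to 105013773, plus strand, mm9) encodes the Wilms tumour zinc finger protein, needed to form the gonad and to keep Sertoli cells in their state. Its values were 7.10, 7.04 and 6.76 in wild type and 7.16, 6.77 and 7.64 in null. The groups overlapped, and the difference was 0.22 (95% interval -0.26 to 0.70). It was -0.0055 without null replicate 3 and 0.43 without null replicate 2.

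Nr5a1 (ENSMUSG00000026751, chromosome 2, 38548176 to 38570062, minus strand, mm9) encodes SF-1, which acts in Sertoli and in steroid-producing Leydig cells. It stood at 6.99, 6.69 and 6.44 in wild type and at 6.85, 6.13 and 7.55 in null, with the highest and the lowest value both in null libraries. The difference was 0.14 (95% interval -0.60 to 0.88). It was -0.22 without null replicate 3 and 0.49 without null replicate 2. The gene 4933433P16Rik overlaps it on the opposite strand with a mean log2 CPM of -0.47. Whether counting used strand is not given in the sources used here, so reads of that pair may be shared. None of the other 8 measured genes overlapped another row of the table.

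Amh (ENSMUSG00000035262, chromosome 10, 80267993 to 80270393, plus strand, mm9) is the hormone gene among them and the usual marker of the immature Sertoli cell. Wild-type libraries had 6.65, 6.56 and 6.14 log2 CPM and null libraries 6.67, 5.54 and 7.32. Read counts were 2400, 2764 and 1939 against 2679, 1285 and 4122, so null replicate 3 had 160 CPM and null replicate 2 had 46.6 CPM. The means were 6.45 ± 0.27 and 6.51 ± 0.90 (SD, n = 3). The difference was 0.06 with a 95% interval of -0.85 to 0.96, the widest of the 9. It was 0.54 without null replicate 2, -0.35 without null replicate 3 and -0.10 without wild-type replicate 3.

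Amh was also read against Sox9, one of its activators, within each library. Amh minus Sox9 was 1.20, 0.97 and 0.68 in wild type and 0.81, 0.22 and 0.52 in null. The mean was 0.95 ± 0.26 for wild type and 0.52 ± 0.29 for null (SD, n = 3). The exact permutation p was 0.2, with an adjusted p of 0.267 over the 4 such pairs. That test allows no p below 0.1 with 3 against 3 libraries, so it cannot decide whether the genotypes differ. Null replicate 2, where both genes were lowest, had the lowest value, while null replicate 3, where both were highest, lay below every wild-type library. The difference of -0.43 was -0.28 without null replicate 2.

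Fshr (ENSMUSG00000032937, chromosome 17, 89384292 to 89600015, minus strand, mm9) encodes the receptor for follicle-stimulating hormone, made in the testis by Sertoli cells alone. It stood at 5.97, 5.64 and 5.76 in wild type and at 5.65, 5.47 and 5.42 in null. Null replicate 1 lay just above wild-type replicate 2, so the groups overlapped, and null replicate 3 was the lowest of the 6. The mean was 5.79 ± 0.17 for wild type and 5.51 ± 0.12 for null (SD, n = 3), a difference of -0.28 (SE 0.12, unadjusted p = 0.057, adjusted p = 0.755 in limma). Without null replicate 3 the difference was -0.23.

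Clu (ENSMUSG00000022037, chromosome 14, 66587320 to 66600385, plus strand, mm9) encodes clusterin, a secreted chaperone abundant in Sertoli cell fluid. Clu stood at 10.68, 10.63 and 10.83 log2 CPM in wild type and at 10.84, 10.51 and 10.57 in null, from 38993 to 50090 reads, and the groups overlapped. The difference was -0.07 (95% interval -0.34 to 0.19). Clu minus Sox9 averaged 5.21 ± 0.17 for wild type and 4.65 ± 0.77 for null (SD, n = 3, exact permutation p = 0.2). In null replicate 3 alone that value was 3.77, against 4.98 and 5.19 in null replicates 1 and 2. The difference between genotypes was -0.56, and -0.12 without null replicate 3.

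Clusterin is also made in epididymis, whose markers differed between libraries. Crisp1, an epididymal secretory protein gene, had 2432, 2751 and 0 reads for wild type and 2712, 3077 and 871 for null. Cdh16 and Pax2 were also lowest in wild-type replicate 3, at 209 reads and 1 read. Pax8, of the same list, was lowest in null replicate 3. It had 376, 198 and 211 reads for wild type and 217, 297 and 117 for null. The summed level of the epididymis and rete list was 15.4 CPM in wild-type replicate 3 and 62.6 to 192 CPM in the other libraries. Clu was not low in wild-type replicate 3, where its 10.83 was below null replicate 1 alone. The part of epididymal RNA in the Clu level was not tested.

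**Figure D2:**
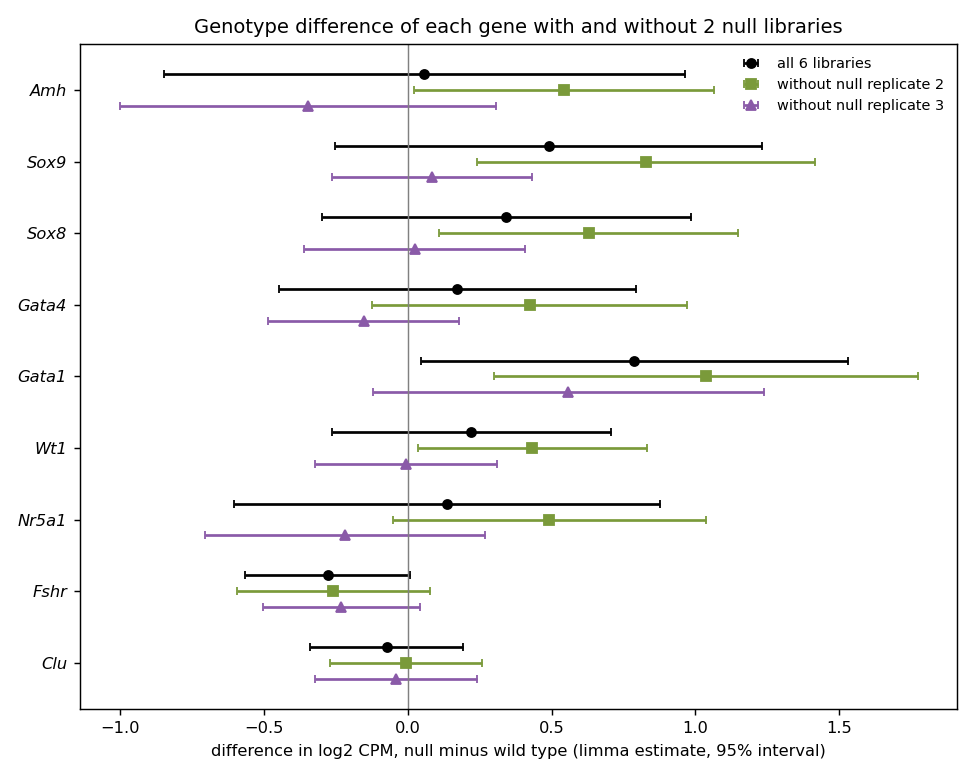
Difference in log2 CPM between Dmrt6 null and wild type for each gene, as the limma estimate with its 95% interval, from all 6 libraries (black circles), without null replicate 2 (green squares) and without null replicate 3 (purple triangles). Amh moves from 0.06 to 0.54 and -0.35, whereas Fshr stays at -0.28, -0.26 and -0.23.

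Leaving out either null library changed the set as a whole. Without null replicate 2 the median difference of the 9 genes was 0.49 with 7 above 0 (50.1% of tested genes), and without null replicate 3 it was -0.04 with 3 above 0 (51.1%). At an unadjusted p under 0.05 there were 5 of the 9 without null replicate 2, where 15.3% of all tested genes were, and 0 without null replicate 3, where 3.13% were. In both fits 0 of 9 passed after adjustment.

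Other Sertoli genes were read from a list of 25. It holds, among others, Dhh, Kitl, Inha, Rhox8 and Cldn11 and had 24 tested members, of which 12 were above and 12 below 0 with a median difference of 0.02. Null replicate 3 was the highest library for 6 of the 24, and null replicate 2 the lowest for 10 of the 24. The list's median level, each gene taken from its own mean, was -0.02 in null replicate 3 and -0.26 in null replicate 2. For the 9 identity genes the same values were 0.78 and -0.40. This difference between both lists was not tested.

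None of the 24 passed the test in either direction, and 2 had an unadjusted p under 0.05, against 3.47% of all tested genes. Hsd17b1, a steroid dehydrogenase gene, stood at 5.14 ± 0.40 for wild type and 4.57 ± 0.13 for null (SD, n = 3), a difference of -0.57 (SE 0.20). Ptgds, which encodes prostaglandin D synthase, differed by -0.69 (SE 0.25), and the intermediate filament gene Vim by -0.27 (SE 0.12). Adjusted p was 0.755 for these 3 in limma. Hsd17b1 and Ptgds were lower in each null library than in any wild-type library, as were 6.02% of all tested genes. Rhox8, a Sertoli homeobox gene of the same X-linked cluster as Rhox5, stood at 7.58, 7.63 and 7.86 in wild type and at 7.60, 7.55 and 7.32 in null, lowest in null replicate 3 as Fshr was.

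Genes that act above or beside the identity genes were read from a second list of 24 regulators and receptors, with 23 tested. The median difference was 0.20, with 15 above and 8 below 0, and 0 passed. Null replicate 3 was the highest library for 14 of the 23. Lhx1, a LIM homeobox gene, differed by 0.73 (SE 0.31) and Sox3, a relative of Sry, by 0.80 (SE 0.50). Without null replicate 3 the median was 0.02.

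A list of 19 genes of follicle-stimulating hormone response, which includes Fshr, had 17 tested, with 8 above and 9 below 0 and a median of -0.04. Igf1, an insulin-like growth factor gene, differed by -0.30 (SE 0.12), the cyclin gene Ccnd2 by -0.26 (SE 0.14) and the adenylyl cyclase gene Adcy3 by 0.46 (SE 0.28). None of the 17 passed. The list's median level lay between -0.08 and 0.03 in all 6 libraries.

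Genes linked to ovarian fate were read from a list of 15, of which 11 were tested. In whole testis the cells that express them cannot be told from these levels. Foxl2, the leading granulosa cell factor, and Cyp19a1, the aromatase gene, were below the minimum level for the test. Of the 11, 6 were above and 5 below 0, with a median of 0.14, and 0 passed. Bmp2 was of low level, at 0.68 ± 0.32 for wild type and 1.99 ± 0.24 for null (SD, n = 3). It differed by 1.31 (SE 0.26, adjusted p = 0.755 in limma). Each null library lay above every wild-type library, as for 5.06% of all tested genes. Axin2, a WNT response gene, differed by 0.54 (SE 0.23) and the forkhead gene Foxo1 by 0.36 (SE 0.21). Null replicate 3 was the highest library for 3 of the 11.

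Markers of the remaining cell types were read in the same way. Germ cell genes had a median difference of 0.08, with 11 of 15 above 0, and a summed level of 1756 to 1958 CPM in wild type and 1904 to 2082 CPM in null. Of 8 Leydig cell genes, 5 were below 0, with a median of -0.28, and the summed level was 677 to 875 CPM in wild type and 555 to 753 CPM in null. Of 9 tested macrophage genes, 9 were below 0 (median -0.23), with a summed level of 175 to 248 CPM in wild type and 145 to 192 CPM in null. Of 8 endothelial genes, 3 were above and 5 below 0, with a median of -0.28. Their summed level was 208 to 260 CPM in wild type and 175 to 217 CPM in null. The smooth muscle genes of peritubular cells summed to 1839 to 2136 CPM in wild type, and to 1690, 2806 and 1644 CPM in null replicates 1, 2 and 3. They were thus highest in null replicate 2, the library in which Amh, Sox9, Gata4, Nr5a1 and Clu were lowest. By smallest p, Sohlh2, Sohlh1 and Kit differed by 0.28, 0.40 and 0.35 in the germ cell list, each without overlap of the groups and each highest in null replicate 3. Hsd3b1 and Hsd17b3, steroid enzymes of Leydig cells, differed by -0.38 and -0.45, and the endothelial receptor gene Tek by -0.52, also without overlap. Such separation was found for 5.06% of all tested genes with null higher and for 6.02% with null lower. Tyrobp, a macrophage adaptor gene, differed by -0.83. In these 5 lists 0 genes passed, and their part in the levels of the identity genes was not tested.

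**Figure D3:**
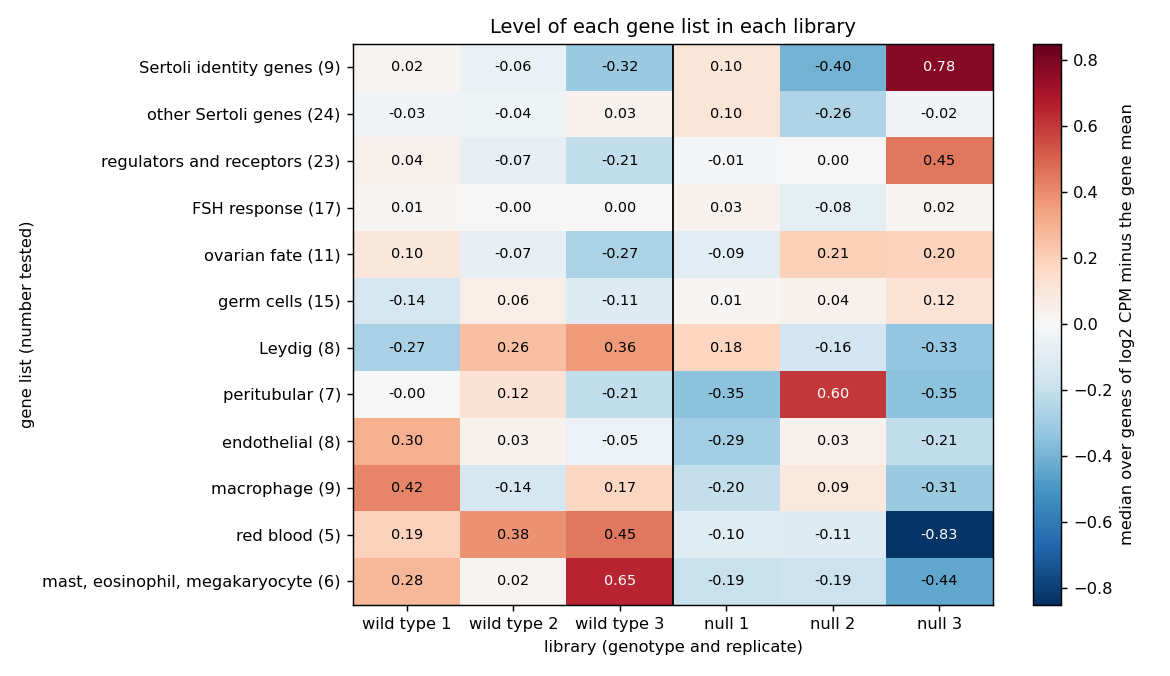
Median level of each gene list (rows, number of tested genes in brackets) in each P8 library (columns), as log2 CPM minus the mean of the gene over the 6 libraries. The epididymis and rete list is left out, since wild-type replicate 3 lies at -2.25. The identity genes reach 0.78 in null replicate 3. In that library regulators and receptors are at 0.45, other Sertoli genes at -0.02 and red blood cell genes at -0.83.

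The profile of each of 3 genes over the 6 libraries was set beside those of 10601 named genes of at least 3 mean log2 CPM. Likeness was the root-mean-square difference after each gene was taken from its own mean. Nearest to Amh was Nr5a1, another of the set, at 0.15, before Gpatch3 and Fstl3 at 0.17. Nearest to Sox9 were Slc4a2 at 0.03, Gtf3c1 at 0.04 and Hcfc1 at 0.07, which encode an anion exchanger, a subunit of a general RNA polymerase III factor and a widely expressed cell cycle co-regulator. Slc4a2 stood at 5.89, 6.10 and 5.90 in wild type and at 6.34, 5.80 and 7.21 in null, with the same highest and lowest null libraries as Sox9. Sox8 was the 354th nearest to Sox9. Nearest to Fshr were Cryl1 at 0.04, Tagln2 at 0.05 and Tnfrsf11b at 0.05. Since these genes were picked for their likeness, their values in single libraries follow from that choice.

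Promoter sequences were found in the RefSeq table (GRCm38.p6) for 3 of the 9 measured genes, Sox8, Gata1 and Fshr. They are shown because Sox8 and Gata1 were highest in null replicate 3 and Fshr lowest. Each is the 250 bases before the annotated start, 5′ to 3′ on the strand of the gene, which is the minus strand for all 3. The regions are chr17:25570687-25570936, chrX:7967911-7968160 and chr17:89200676-89200925 in that build, which is not the mm9 build of the files. Capitals mark matches to the motifs searched.
Sox8: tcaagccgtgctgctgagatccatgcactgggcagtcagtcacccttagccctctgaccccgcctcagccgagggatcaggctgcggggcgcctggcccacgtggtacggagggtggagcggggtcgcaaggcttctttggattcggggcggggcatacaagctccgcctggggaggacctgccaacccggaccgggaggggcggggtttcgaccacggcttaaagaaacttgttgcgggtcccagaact
Gata1: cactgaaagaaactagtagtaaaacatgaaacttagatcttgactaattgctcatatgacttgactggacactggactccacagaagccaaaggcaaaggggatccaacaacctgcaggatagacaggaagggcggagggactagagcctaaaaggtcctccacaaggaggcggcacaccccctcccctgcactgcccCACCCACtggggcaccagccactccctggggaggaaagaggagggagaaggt
Fshr: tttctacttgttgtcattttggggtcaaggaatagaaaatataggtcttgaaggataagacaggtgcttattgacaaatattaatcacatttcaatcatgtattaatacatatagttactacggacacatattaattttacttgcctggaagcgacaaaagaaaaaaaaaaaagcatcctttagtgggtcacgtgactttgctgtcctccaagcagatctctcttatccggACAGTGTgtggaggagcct
The motifs were read on both strands. NR5A1 binds AGGTCA, found in 16.3% of all promoters of this length in the table. GATA factors were searched by AGATAA (11.2%) and by TGATAA (9.05%). For SOX factors the letters were ACAAT (31.0%) and, as another form, ACAAAG (18.7%). WT1 was searched by GTGGGNG (31.6%). The core of DMRT sites was searched by ACANTGT (7.54%), and one form of it contains the first SOX motif. The search ran over these bases and the 50 that follow the start. Gata1 held GTGGGNG 52 bases before its start, on the opposite strand, and again 2 bases after the start. The table held 32851 promoters of the same length. Fshr held ACANTGT 19 bases before its start. No listed motif was in the Sox8 window. A match is only a run of letters here. No peak lay within 1 kb of the 5' end of any of the 3 genes in mm9. That end need not be the RefSeq start from which the bases shown were taken.

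The G and C content of these bases and the 50 after the start was 66.3% for Sox8, 57.3% for Gata1 and 40.7% for Fshr. Across tested genes with a promoter in the table, the median level in null replicate 3 went from -0.15 in the lowest of 5 groups by promoter G and C to 0.23 in the highest, each gene taken from its own mean. In wild-type replicate 3 it went from 0.06 to -0.10, and in null replicate 2 from 0.03 to -0.05. A check of base composition over the identity genes is void, because 3 of 9 have a value and 80% were required. Its part in their levels was not tested.

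Adult DMRT6 peaks lay within 10 kb of the 5' end of 3 of the 9 genes, Amh, Sox8 and Gata4, where 31.2% of all tested genes had one. Within 1 kb there was none, against 16.0% of tested genes. Within 5 kb only Gata4 had a peak among the 9 (24.3% of tested genes), within 50 kb 5 had one (64.2%) and within 100 kb 6 (79.4%). With a score of 100 or more required, 2 of the 9 had a peak within 10 kb (16.1%). Counting a peak by its edge gave 3 (31.4%), counting the gene body with 10 kb either side gave 5 (45.8%), and the gene body alone gave 1, Gata4 (29.4%). Each share of members is thus near or below the background, over 9 genes. Distances run to the middle of the peak from the annotated beginning of the gene in the table, on its own strand. No exon annotation of that build was used, so positions inside a gene are given only as such. Scores are the authors' own, and with 1 ChIP library no peak has a replicate check.

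Gata4 had 2 peaks within 10 kb, and 7.29% of tested genes had 2 or more. One lay 3058 bp upstream (chromosome 14, 63893473 to 63893700, score 132) and one 9202 bp inside the gene (63881223 to 63881431, score 87.6). No other gene's 5' end was nearer to either. Sox8 had the strongest peak of the set, 6217 bp upstream (chromosome 17, 25713611 to 25714085, score 1151). It ranked 47th of 14862 by score and lay outside any gene of the table. The 5' end of Lmf1, a lipase maturation factor gene, was nearer to it, at 2271 bp. The Amh peak lay 7294 bp upstream (chromosome 10, 80260629 to 80260770) with a score of 60.7, and 9.89% of peaks scored lower. It lay inside Plekhj1 and 244 bp from the 5' end of Sf3a2, a splicing factor gene.

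Farther out, Sox9 had 1 peak 7050 bp beyond its 3' end (chromosome 11, 112655998 to 112656249, score 280), inside the predicted gene Gm11681. Clu had 2 beyond its 3' end, at 20224 and 22255 bp from its start, both inside Gulo. The nearest peak to Gata1 was 94.0 kb away, 2734 bp from the start of Suv39h1. That to Wt1 was 109 kb away, 24 bp from the start of Eif3m, and that to Nr5a1 154 kb away inside Nek6. Fshr was the farthest of the set at 253 kb, and 91.4% of tested genes had a nearer peak. Gata1 lies on the X chromosome, where 5.18% of 849 tested genes had a peak within 10 kb.

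For Rhox5, RefSeq places Rhox2h and Rhox6 as the nearest neighbours that have a row in the table. From the first base of Rhox2h to the last of Rhox6 (chromosome X, 35083504 to 35183034, mm9), a stretch of 99.5 kb, there were 0 peaks. The nearest peak outside it was 238 kb away.

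The genotype differences of genes with and without a peak overlapped. Amh, Sox8 and Gata4 differed by 0.06, 0.34 and 0.17, and the 6 without a peak within 10 kb ranged from -0.28 in Fshr to 0.79 in Gata1. Peaks were read in adult testis and expression at P8, so stage and tissue make-up differ between both.

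**Figure D4:**
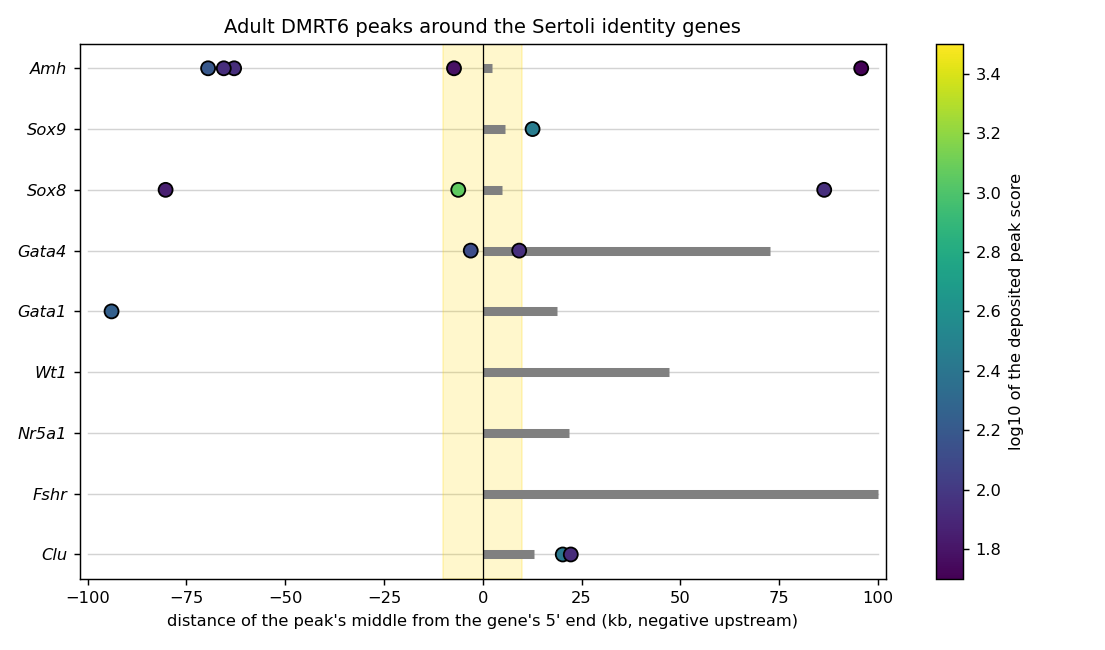
Middle of each deposited adult DMRT6 peak (points, coloured by log10 of the authors' score) by its distance in kb from the 5' end of each measured gene, within 100 kb either side. Grey bars show the gene from its 5' end, and the yellow band the 10 kb window. Amh, Sox8 and Gata4 have peaks in the band, and Wt1, Nr5a1 and Fshr none in the plot.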

How the data were processed

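The authors deposited 1 table of log2 CPM per gene and library and 1 list of ChIP peaks with a score. Per the submitters' processing notes, STAR 2.3.0e, Bowtie2, Picard and edgeR were used with build mm9, with no role given for each. Per the file headers, the peak score has no stated scale, and the file name gives MACS 1.4 and removal of duplicates. The lowest score deposited was 50.02. For the annotation, read counter and strand setting: not given in the sources used here.

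Above a shared floor the values rise in equal steps per library, and 100% came out as whole reads (tolerance 1e-06), with a prior of 0.22 to 0.27 reads. Depth limits low genes only: 3 reads are 0.103 to 0.126 CPM.

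Genes with a mean log2 CPM of at least 0 (16634) were fitted with limma-trend (limma 3.58.1, R 4.3.3), genotype as the only term, on the deposited values and adjusted over all of them. The threshold was 0.05, and the fit was tested on simulated data. The simulation drew the same spread for both genotypes, so it does not cover the wider spread of the null libraries. Differences are null minus wild type.

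The members and lists were chosen with earlier results of these data known. Besides all members, genes named with a difference are among the 3 of smallest p in a list (4 among other Sertoli genes), and the 3 nearest profiles to Amh, Sox9 and Fshr. Some genes that this rule names are not reported here. The Gata1 and Fshr promoters, Rhox8 and the reads of epididymal markers were added after the values were seen. Per-sample columns left unused numbered 0. Levels were not compared between genes, because no transcript lengths were used. Promoter bases after the start were searched but are not printed. Protein comparisons of SOX8 with SOX9 and of GATA1 with GATA4 were planned and not made here.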

Additional observations from a re-analysis of the deposited data

How the results depend on the processing

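With 3 libraries per genotype, the spread of the null libraries limits the precision: the 95% interval of Amh spans -0.85 to 0.96. No member passed the threshold under any of the 15 alternatives run (other filters, scalings, pseudocount, voom, array weights, the replicate block, each library left out, and libraries centred on other Sertoli genes, the last chosen after seeing the data). The lowest adjusted p in limma was 0.0628, for Gata1 with array weights, a fit that gave null replicate 1 a weight of 19.3 and null replicate 3 one of 0.153 and stopped before it converged. The count of all genes past the threshold was 1 as reported, 3 without a filter, 0 with the minimum mean raised to 2 log2 CPM (420 at an unadjusted p under 0.05), 3 with median-centred libraries, 2 with quantile normalization, 136 with array weights and 19 with libraries centred on other Sertoli genes, a scaling that put the median of all genes at -0.11. Leaving out 1 library gave 0 (without null replicate 1) to 5 (without null replicate 3).

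Directions held in every alternative for Sox9, Sox8, Gata1 and Fshr. With 1 library left out, the difference ran from -0.35 to 0.54 for Amh, from -0.15 to 0.42 for Gata4, from -0.0055 to 0.43 for Wt1 and from -0.22 to 0.49 for Nr5a1, the lowest in each case without null replicate 3 and the highest without null replicate 2. Amh was at -0.056 with libraries centred on other Sertoli genes, and Clu at 0.13 with array weights. The median over the members ran from -0.04 to 0.49 with 1 library left out.

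With the replicate number as a block, 2 genes passed over all and 0 of the members, and the members' median stayed at 0.17. The correlation across genes of the deviations of same-numbered libraries was -0.09, -0.22 and -0.04 for numbers 1, 2 and 3. It was 0.23 for wild-type replicate 1 with null replicate 2, and 0.22 for wild-type replicate 2 with null replicate 3. With 3 libraries per genotype these values cannot show whether the libraries were paired.

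The count of members with a peak was 3 at 10 kb, 0 at 1 kb, 1 at 5 kb, 5 at 50 kb, 6 at 100 kb, and 5 for peaks over the gene body or 10 kb either side. It was 2 among peaks of score 100 or more, where the Amh peak dropped out. With 1 library left out, the genotype difference ran from -0.25 to -0.04 for Sox8 minus Sox9, from 0.19 to 0.92 for Gata1 minus Gata4, from -0.58 to -0.28 for Amh minus Sox9 and from -0.83 to -0.12 for Clu minus Sox9.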
